A study of Bos taurus with 52 samples.

Results

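Interferon tau and the receptor through which it acts were followed in bovine conceptuses and endometrium. The genes were chosen by name: the 2 interferon tau genes in the count table, IFNT2 and IFN-TAU, and the 2 subunits of the type I interferon receptor, IFNAR1 and IFNAR2. They are 4 of the 31651 named genes in the table. IFNT2, IFN-TAU and IFNAR1 had enough reads to be tested in conceptuses, and IFNT2, IFNAR1 and IFNAR2 in endometrium.

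RNA had been sequenced from heifers of 3 fertility classes, high (HF), reduced (SF, subfertile) and infertile (IF). Endometrium was taken from 25 animals, 5 per group. NP-HF, NP-SF and NP-IF were non-pregnant animals of each class, on a day that the labels do not state. P-HF and P-SF were pregnant HF and SF animals at day 17. The 27 day 17 conceptuses came from 19 recipients: 10 from SF recipients (C-SF, 7 recipients), 10 long ones from HF recipients (C-HF-long, 10 recipients) and 7 short ones from HF recipients (C-HF-short, 6 recipients). Size class was given for HF conceptuses only, and 8 recipients gave 2 conceptuses of stated length. The fertility class is that of the recipient heifer, and the labels give no treatment and no genotype. A pregnant endometrium was also sequenced from 8 of the conceptus recipients. Endometrium and conceptus RNA were extracted with different reagents, so that tissue and reagent cannot be told apart and no gene was tested between the tissues. P-values measure the spread between these libraries only.

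Interferon tau is the signal by which a ruminant conceptus announces itself to the mother. It is secreted by the trophectoderm, the outer cell layer of the elongating conceptus, and acts on the uterine lining to prevent the return to heat. Like other type I interferons it binds a receptor made of IFNAR1 and IFNAR2. The receptor works through the kinases TYK2 and JAK1 and through transcription factors such as STAT2 and IRF9 that turn on interferon-stimulated genes.

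Libraries held 17.1 to 27.3 M reads in endometrium and 20.5 to 47 M in conceptuses (M, 1e+06 reads). Levels are given as CPM, the reads of a gene per 1e+06 reads of its library, scaled within each tissue. Trophectoderm keratins matched the tissue labels, with KRT8 at a mean of 9295 CPM and KRT18 at 11620 CPM in conceptuses against 115 CPM each in endometrium. PGR, the progesterone receptor, had a mean of 6.63 CPM in endometrium and 0.202 CPM in conceptuses. All 8 listed trophectoderm genes were detected in conceptuses, and all 8 in endometrium as well. GATA2 alone of that list had the higher mean in endometrium, 133 CPM against 61.8 CPM in conceptuses. The description fields numbered the conceptus libraries in 2 series, called number sets here. The first held 20 libraries and the second 7, namely 3 C-SF and 4 C-HF-short conceptuses of 1.2 to 4 cm. In 22 conceptuses the animal or length written in the description differs from that in the title. The count columns carry the titles, so the titles gave recipient and length, and the number set was matched to them by animal and length. Number set was a covariate in the main conceptus fits. It was left out of fits with summed conceptuses or a recipient block, and of comparisons between conceptuses sharing a uterus.

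IFNT2 was abundant in all 27 conceptuses and had a wider range among the short and the SF ones than among the long ones. The 10 C-HF-long libraries ranged from 6323 to 13183 CPM with a median of 8157 and a mean of 8676 ± 2124 (SD, n = 10). The 7 C-HF-short libraries ranged from 868 to 14622 CPM with a median of 7963 and a mean of 7432 ± 5093 (SD, n = 7). The 10 C-SF libraries ranged from 1779 to 10462 CPM with a median of 5208 and a mean of 5578 ± 2887 (SD, n = 10). The ranges of the 3 groups overlapped. The highest library held 2.08 times the lowest among C-HF-long, 16.9 times among C-HF-short and 5.88 times among C-SF. Both extremes of C-HF-short and the highest C-SF library were in the second number set, which held no C-HF-long library. In the first set the short HF libraries lay within the range of the long ones, and the C-SF libraries ranged from 1779 to 8296 CPM. Size class and number set thus cannot be told apart in the wide C-HF-short range. Both of the lowest conceptuses, at 868 and 1503 CPM, came from one HF recipient, animal 753. IFNT2 took 0.713% of all counts on average in the 27 libraries, between 0.0970% and 1.46%.

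The second interferon tau gene, IFN-TAU, was close to silent beside it. It had 1 to 142 reads per conceptus, or 0.0521 to 3.74 CPM. It made up 0.00137% of the reads of both genes in the lowest library (exact 95% binomial interval 3.47e-05% to 0.00764%) and 0.215% in the highest (0.181% to 0.254%). These intervals cover counting error only. Mean levels were 1.87 ± 1.09 CPM in C-SF (SD, n = 10), 1.39 ± 0.978 CPM in C-HF-short (SD, n = 7) and 1.08 ± 0.379 CPM in C-HF-long (SD, n = 10), and the ranges overlapped. Its order of group means was the reverse of that of IFNT2. Bovine interferon tau genes are close copies. The RefSeq gene table of a later assembly (ARS-UCD2.0) lists 2 more, IFNT3 and IFN-tau-c1, that have no row of their own among the counts. How reads of such copies were shared out is therefore uncertain.

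**Figure D1:**
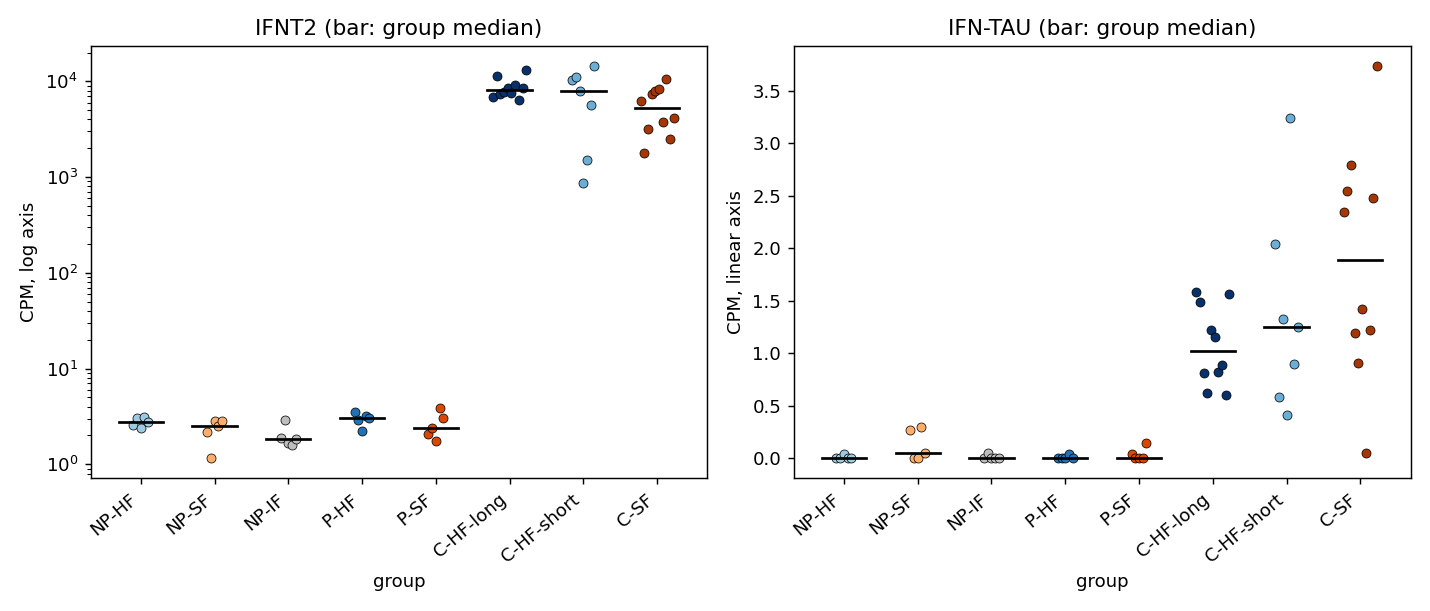
IFNT2 (left, CPM on a log axis) and IFN-TAU (right, CPM on a linear axis) in each library of the 8 groups; points are libraries and bars are group medians. IFNT2 lies between 868 and 14622 CPM in conceptuses and between 1.15 and 3.90 CPM in endometrium, and IFN-TAU stays at or under 3.74 CPM throughout.

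IFNT2 reads were also present in every endometrial library, at a far lower level, in non-pregnant as well as in pregnant animals. The 15 non-pregnant libraries ranged from 1.15 to 3.14 CPM with a median of 2.52, and the 10 pregnant ones from 1.74 to 3.90 CPM with a median of 2.96. These levels stand for 25 to 84 reads per library and 1393 reads in all, of which 794 were in non-pregnant libraries. The table holds 7 of the listed PAG and TKDP genes, which encode secreted products of the trophoblast. In the same 25 libraries together 6 of them had 3 to 8 reads, PAG11 and TKDP1 having 3 and 4, while PAG8 had 46, with 30 in pregnant libraries. For every 1000 CPM in conceptuses, mean endometrial levels were 0.352 CPM for IFNT2, 0.405 CPM for PAG8 and 0.000294 to 0.122 CPM for the other PAG and TKDP genes. In conceptuses, there were 15.4 to 438 IFNT2 reads for every 100 PAG11 reads and 5.09 to 63.7 for every 100 TKDP1 reads. The source of the IFNT2 reads in endometrium was not tested. IFN-TAU had 0 to 7 reads per endometrial library and 21 reads in all, with 6 and 7 of them in a pair of NP-SF libraries.

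Whether fertility class went with the level of interferon tau was asked with edgeR's quasi-likelihood test and Benjamini-Hochberg adjustment over all genes tested, with a gene called at an adjusted p under 0.05. In this comparison of SF with HF, 7.79% of 15678 genes were called, and 0 of the 3 tested members were. IFNT2 had a log2 fold change of -0.50 ± 0.33 (SE, adjusted p = 0.351), from means of 5578 CPM in SF and 8164 CPM in HF. IFN-TAU had a log2 fold change of 0.58 ± 0.35 (adjusted p = 0.299), and IFNAR1 had one of -0.31 ± 0.15 (unadjusted p = 0.0490, adjusted p = 0.192). With DESeq2 none of the 3 was called either, and the unadjusted p of IFNAR1 was 0.0458. Conceptuses of one uterus entered this fit as separate libraries. With those of one recipient and group summed, IFNT2 stood at -0.81 ± 0.32 (unadjusted p = 0.0186, adjusted p = 0.151). IFNAR1 stood at -0.38 ± 0.16 (adjusted p = 0.173) and IFN-TAU at 0.74 ± 0.36 (adjusted p = 0.246), and 2.68% of genes were called. The summed fit had no number set covariate, and HF recipients with a long and a short conceptus still entered it with both.

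The IFNT2 difference was uneven between the number sets and changed with recipients 753 and 985, in opposite directions. Within the first number set the log2 fold change was -0.69 ± 0.23 (adjusted p = 0.0760), where 7 C-SF libraries lay between 1779 and 8296 CPM and 13 HF libraries between 6323 and 13183 CPM. Within the second it was -0.01 ± 0.90 (adjusted p = 0.9999). Its 3 C-SF libraries were at 2524, 4134 and 10462 CPM, and its 4 C-HF-short libraries were at 868, 1503, 5622 and 14622 CPM. Without the conceptuses of recipient 753, IFNT2 was called lower in SF at -0.75 ± 0.24 (adjusted p = 0.0459), and so was IFNAR1 at -0.43 ± 0.14 (adjusted p = 0.0486). Without those of recipient 985, which had the highest IFNT2 of all, the IFNT2 value was -0.20. Leaving out any other recipient with 2 conceptuses, or any single library, gave no call for a member in SF against HF. That recipients rather than single libraries be left out was decided after the data were seen.

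Set against each HF size class, SF conceptuses gave similar values. Against C-HF-long, where 8.9% of 16330 genes were called, 0 of 3 members were, and IFNT2 stood at -0.53 ± 0.39 (adjusted p = 0.403) and IFNAR1 at -0.30 ± 0.18 (adjusted p = 0.304). Against C-HF-short, where 0.00612% of genes were called, 0 of 3 members were, and IFNT2 stood at -0.46 ± 0.40 (adjusted p = 0.785). These 2 comparisons share the SF libraries.

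Conceptus size was not matched by a difference in interferon tau CPM that passed the test. The total made by a conceptus was not measured. Between C-HF-short and C-HF-long 0% of 16330 genes were called, with 599 under an unadjusted p of 0.05 and 2 called by DESeq2, and IFNT2 had a log2 fold change of -0.07 ± 0.45 (adjusted p = 0.986). IFN-TAU had 0.14 ± 0.50 and IFNAR1 0.04 ± 0.21 in the same comparison. The second number set held 4 of the C-HF-short libraries and no C-HF-long one. With the covariate, short against long thus rests directly on the 3 short libraries of the first set. The other 4 enter only through the C-SF libraries of the second set. Without the covariate 0 genes were called between the size classes as well. Over the 20 conceptuses with a stated length, 1.2 to 17 cm, the IFNT2 slope was 0.15 ± 0.25 log2 units per doubling of length (adjusted p = 0.814). The slopes were 0.41 ± 0.33 for IFN-TAU and -0.05 ± 0.11 for IFNAR1, and 0% of 15592 genes were called, with 1849 under an unadjusted p of 0.05, 45 called by DESeq2 and 0 by limma-voom. The second number set held only conceptuses of 1.2 to 4 cm, so its covariate takes up part of length, and without it 417 genes (2.67%) were called on length. The difference of the slope between SF and HF was 0.17 ± 0.44 for IFNT2 and -0.32 ± 0.15 for IFNAR1 (unadjusted p = 0.0502, adjusted p = 0.962). With recipient as a replicate block the IFNT2 slope was -0.12 ± 0.11 and its value for short against long was 0.14 ± 0.18. These signs are opposite to those without the block, and neither value was called. The block fits also left out the number set covariate and the recipients without paired conceptuses. What changed the signs was not tested.

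Conceptuses that had shared a uterus allow length to be compared within a recipient. In recipients 690, 971 and 985 the longer mate was in the first number set and the shorter in the second. Length and number set cannot be told apart in those pairs. IFNT2 was higher in the longer conceptus of 3 pairs and in the shorter conceptus of 5. In recipient 971 a 17 cm conceptus had 6323 CPM and its 2.8 cm mate 5622 CPM, and in recipient 985 the long conceptus had 13183 CPM and its 1.3 cm mate 14622 CPM. The largest difference was in recipient 755, with 3215 CPM in the longer conceptus and 7380 CPM in its 4 cm mate. The other pairs, longer conceptus first, had 6282 and 10462 CPM in recipient 690, 1503 and 868 CPM in 753, 8296 and 7908 CPM in 778, 7376 and 11196 CPM in 825, and 7822 and 7963 CPM in 894. Longer minus shorter averaged -0.21 ± 0.62 (SD, 8 pairs) on the log2(CPM + 1) scale (two-sided exact sign-flip permutation p = 0.422, adjusted over 5 measures 0.527). The smallest p that 8 pairs allow is 0.00781. IFN-TAU averaged 0.40 ± 0.62 (exact permutation p = 0.0938, adjusted 0.293), higher in the longer conceptus of 6 pairs. IFNAR1 averaged -0.17 ± 0.30 (exact permutation p = 0.117, adjusted 0.293).

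IFNT2 levels of mates were often close. The higher mate had between 1.02 and 2.30 times the IFNT2 CPM of the lower, against 16.9 times between the extremes of all conceptuses. Pearson's r between mates was 0.879 over 8 recipients (exact permutation p = 0.00863, adjusted over 4 genes 0.0173) and Spearman's rho was 0.667 (exact permutation p = 0.0831, adjusted 0.166). Without the 2 recipients farthest from the median r was 0.656 (exact permutation p = 0.156, n = 6), and without recipient 753 alone it was 0.586 (exact permutation p = 0.152), so that the relation rests on those recipients. The relation was computed after the data were seen. Among 13100 genes averaging 1 CPM or more the median r between mates was 0.480, and 5.36% had an r at least as high as that of IFNT2.

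**Figure D2:**
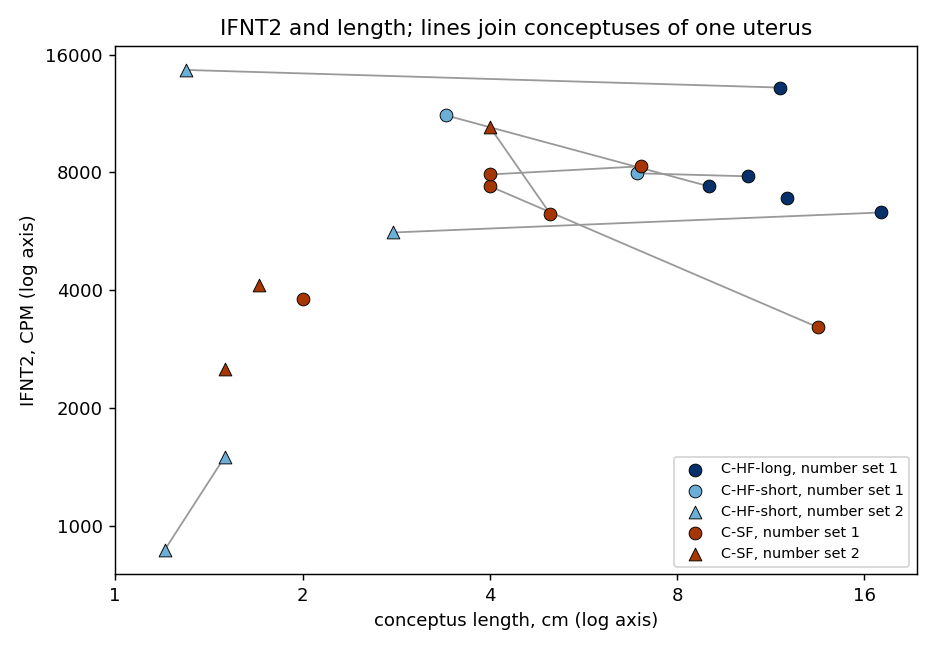
IFNT2 (CPM, log axis) against conceptus length (cm, log axis) in the 20 conceptuses with a stated length; colours mark the group, circles and triangles the first and second number set, and grey lines join conceptuses of one uterus. The 2 conceptuses of recipient 985, joined by the longest line, hold the highest levels, and the 2 of recipient 753, at 1.2 and 1.5 cm, the lowest.

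The genes whose levels ran closest to interferon tau over the 27 conceptuses were other type I interferons. They were ranked by Pearson's r of log2(CPM + 1) with the 2 interferon tau genes summed, among 9898 genes averaging 5 CPM or more, as a description. LOC100298530 (r = 0.968), IFNW1 (an interferon omega, r = 0.961, mean 78.1 CPM) and LOC513706 (r = 0.926) came first, and the RefSeq table places all of them among the type I interferon genes of one cluster. They may share reads with IFNT2, since they are related in sequence. SHF (0.899), FOXI3 (a forkhead factor, 0.896), SSLP1 (0.890), ABCG2 (a membrane transporter, 0.871), ALDH3A2 (a fatty aldehyde dehydrogenase, 0.868), LOC104972543 (0.863) and PAQR8 (a membrane progestin receptor, 0.853) followed. The median r of all ranked genes was 0.0284. All values share the same libraries and scaling, and the 2 libraries of recipient 753 hold the lowest IFNT2. Of 21 other interferon genes listed, 11 had a row in the table and 2 were tested. IFNW1 had a log2 fold change of -0.55 ± 0.37 in SF against HF (adjusted p = 0.364), and was called lower within the first number set (-0.81 ± 0.24, adjusted p = 0.0446) and without recipient 753 (-0.83 ± 0.27, adjusted p = 0.0469). Within the second number set its value was 0.10, and without recipient 985 it was -0.21. Of 35 fits that left out a library or a recipient, 1 called IFNW1.

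Among trophoblast products, PTGS2, the enzyme of prostaglandin synthesis (r = 0.787), and TKDP1, a Kunitz-domain secreted protein (r = 0.765), also ran with IFNT2 over the 27 libraries. PAG11, a pregnancy-associated glycoprotein, had an r of 0.325. IFNAR1 itself had an r of 0.656 with IFNT2, and IFN-TAU had one of -0.221. Spearman's rho with IFNT2 was 0.764 for PTGS2, 0.510 for TKDP1, 0.343 for PAG11, 0.528 for IFNAR1 and -0.189 for IFN-TAU. Of 10 listed trophoblast products in the table, 8 were tested in SF against HF, where 4.16% of all genes were called lower. TKDP2 was called lower (3.80 ± 1.86 CPM in 10 SF and 91.0 ± 255 CPM in 17 HF conceptuses, SD, log2 fold change -4.24 ± 1.07, adjusted p = 0.0188), the other 7 were not called, and the median log2 fold change was -0.51 against 0.01 over all genes. The TKDP2 call was lost with limma-voom, within the first number set (adjusted p = 0.0510) and within the second. It was also lost with conceptuses of one recipient and group summed (adjusted p = 0.0652) and without recipient 755.

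Factors known to act at the interferon tau gene were partly lower in SF conceptuses. Of 14 such genes in the table all were tested, and 4 were called lower and 0 higher in SF against HF, where 4.16% of all genes were called lower and 3.64% higher. GATA3 was at 46.0 ± 11.9 CPM in SF and 103 ± 52.6 CPM in HF (log2 fold change -1.16 ± 0.24, adjusted p = 0.00968). DLX3, a homeobox factor of trophoblast, was at 4.17 ± 0.885 CPM and 7.91 ± 3.75 CPM (-0.92 ± 0.22, adjusted p = 0.0142). The co-activators YAP1 (-0.41 ± 0.12, adjusted p = 0.0352) and CREBBP (-0.59 ± 0.17, adjusted p = 0.0343) were the other two. The median of the 14 genes was -0.16.

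Neither DLX3 nor GATA3 tracked IFNT2 closely across conceptuses, with r of 0.0543 and 0.396. ETS2 and CDX2, the factors best known for driving interferon tau, were not called in SF against HF (log2 fold changes 0.05 ± 0.15 and 0.32 ± 0.14, adjusted p 0.876 and 0.152). Over the 27 libraries they ran opposite to IFNT2, with r of -0.675 and -0.656 and Spearman's rho of -0.485 and -0.593. Conceptuses of one uterus entered these values as separate libraries. Against C-HF-long, GATA3, DLX3, GATA2 and CREBBP were called lower, 4 of 14, where 5.1% of genes were. Within the first number set alone GATA3 was still called, while DLX3, CREBBP and YAP1 were not (adjusted p 0.0781, 0.0651 and 0.0822). With the conceptuses of one recipient and group summed, the edgeR adjusted p was 0.0619 for DLX3, 0.303 for CREBBP and 0.0839 for YAP1. Leaving out 1 library or recipient ended the call of CREBBP in 9 of 35 fits and of YAP1 in 10, and that of GATA3 and DLX3 in 0.

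The receptor subunits differed between the tissues. IFNAR1 ranged from 57.6 to 97.9 CPM in the 25 endometrial libraries and from 9.85 to 34.97 CPM in the 27 conceptuses, so that the tissues did not overlap. The ratio of the means, 76.4 to 22.5 CPM, was 3.39. Such a gap was common: 43% of 20940 genes were lower in every conceptus than in any endometrium, 9.99% (IFNT2 among them) were higher, and 46.9% had at least this ratio. In endometrium the order of group means was NP-HF at 81.1 ± 9.23 CPM, NP-IF at 78.8 ± 14.4, P-HF at 75.4 ± 12.9, P-SF at 75.2 ± 3.12 and NP-SF at 71.5 ± 7.60 (SD, n = 5 each). In conceptuses C-HF-long came first at 25.3 ± 4.28 CPM, then C-HF-short at 23.3 ± 7.60 and C-SF at 19.2 ± 5.89. Within a tissue the ranges of neighbours in this order overlapped.

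IFNAR2, the subunit that JAK1 binds, was nearly absent from conceptus libraries. It ranged from 25.9 to 47.3 CPM in endometrium and from 0 to 0.753 CPM in conceptuses. The 27 conceptuses held 112 IFNAR2 reads in all, and 12 of them held 0, which allows a level of up to 0.0688 to 0.156 CPM depending on depth (3 reads). The ratio of the means, 36.2 to 0.120 CPM, was 303, and 4.28% of the 20940 genes had at least this ratio. The order of endometrial group means was P-SF at 39.9 ± 1.19 CPM, NP-HF at 37.6 ± 5.06, NP-IF at 36.7 ± 7.04, P-HF at 35.3 ± 3.90 and NP-SF at 31.6 ± 4.603 (SD, n = 5 each), with neighbours overlapping.

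The few IFNAR2 reads of conceptuses were concentrated in 5 libraries. These were the C-SF conceptus of recipient 782 with 31 reads, both conceptuses of recipient 825 with 19 and 16, and both of recipient 778 with 10 each. All others had 0 to 6. The same 5 libraries had 61.1, 364, 197, 85.2 and 150 CPM of 17 interferon-stimulated genes summed, where the median conceptus had 45.4 CPM and pregnant endometrium 9136 to 25690 CPM. Their 8 uterine cell markers summed to 29.2, 17.0, 15.99, 10.2 and 6.76 CPM, where conceptuses ranged from 0.834 to 29.2 CPM around a median of 4.45 and endometrium from 1674 to 14600 CPM. Libraries without an IFNAR2 read reached like sums, with 27.6 CPM in C-HF-long replicate 9, 15.1 in C-HF-short replicate 7 and 10.2 in C-HF-long replicate 8. The collagens COL1A1 and COL3A1 had the highest means of the 8 markers in conceptuses, 3.24 and 1.61 CPM. HOXA10 and HOXA11 had 0.0442 and 0.0341 CPM, and PGR, ESR1, OXTR and SERPINA14 had 0.195 to 1.17 CPM. Like sums therefore need not hold like parts of uterine RNA. The part of uterine RNA in these reads was not tested. In bulk tissue fewer cells with a transcript and less of it per cell cannot be told apart.

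Receptor subunits of the other interferon types were present in conceptuses. IFNGR1, of the interferon gamma receptor, had a mean of 23.2 CPM in conceptuses and 155 CPM in endometrium, and its partner IFNGR2 had 5.46 and 94.8 CPM. IFNLR1, of the interferon lambda receptor, had 1.46 and 6.61 CPM, and IL10RB, shared with the interleukin 10 receptor, had 19.6 and 40.4 CPM. The endometrium to conceptus ratio of these 4 genes lay between 2.06 and 17.4, below that of IFNAR2. None of the 4 was called in SF against HF conceptuses, where 7.79% of all genes were. Nor was any called in pregnant against non-pregnant endometrium, where 20.8% of all genes were called in HF and 4.07% in SF. With 4 genes these counts do not stand apart from the shares.

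**Figure D3:**
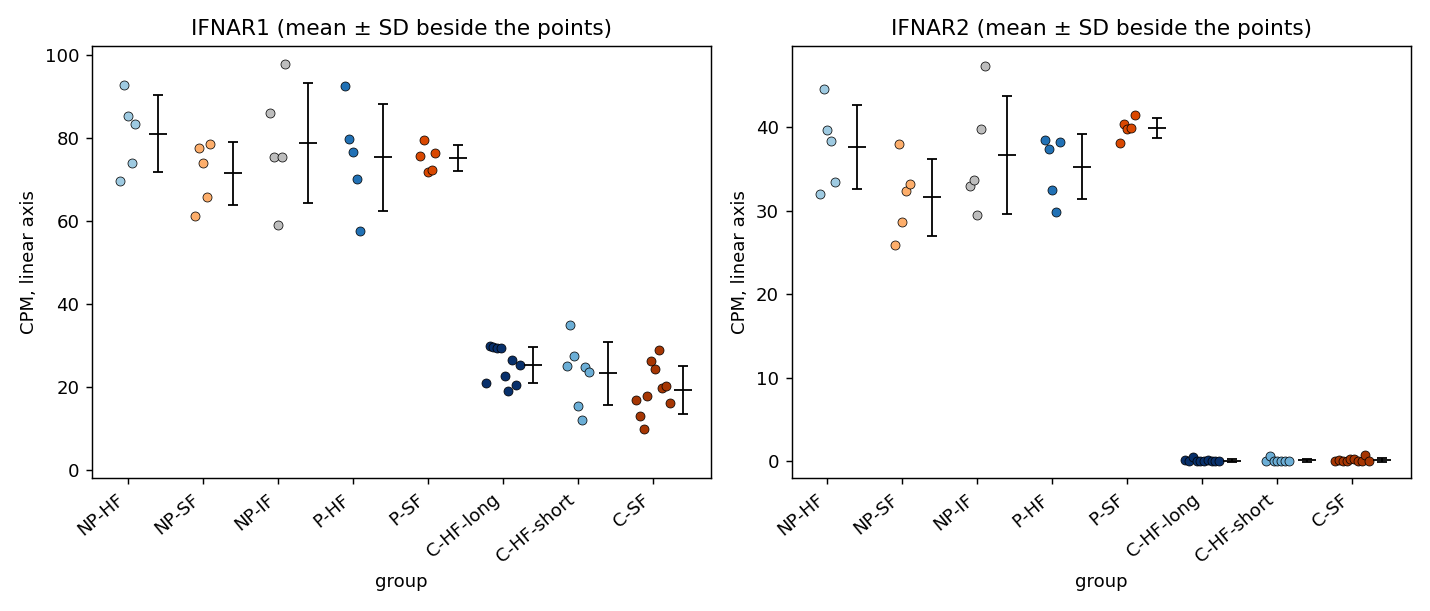
IFNAR1 (left) and IFNAR2 (right) in CPM on linear axes for each library of the 8 groups; points are libraries, and the mean ± SD of each group stands beside them. IFNAR1 is 57.6 to 97.9 CPM in endometrium and 9.85 to 34.97 CPM in conceptuses, while IFNAR2 is 25.9 to 47.3 CPM in endometrium and under 1 CPM in all conceptuses.

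Pregnancy did not move the receptor subunits past the test in either fertility class. In P-HF against NP-HF 20.8% of 19606 genes were called and 0 of the 3 tested members, with log2 fold changes of -0.11 ± 0.12 for IFNAR1 (adjusted p = 0.584), -0.09 ± 0.12 for IFNAR2 (adjusted p = 0.633) and 0.09 ± 0.24 for IFNT2. In P-SF against NP-SF 4.07% were called and again 0 of 3 members, with 0.07 ± 0.12 for IFNAR1 and 0.19 ± 0.24 for IFNT2. IFNAR2 came closest there, at 0.34 ± 0.12 (unadjusted p = 0.00939, adjusted p = 0.125). Its 5 P-SF libraries were at 38.1, 39.8, 39.9, 40.4 and 41.4 CPM and its 5 NP-SF libraries at 25.9, 28.6, 32.3, 33.2 and 37.9 CPM, so that these groups did not overlap. Of all genes tested, 3.91% were likewise higher in every P-SF than in any NP-SF library. The test of the difference in pregnancy change between SF and HF, in which 0.0051% of genes were called, gave 0.43 ± 0.17 for IFNAR2 (adjusted p = 0.648).

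Fertility class alone gave no called member in endometrium. In P-SF against P-HF, NP-SF against NP-HF, NP-IF against NP-HF and NP-IF against NP-SF 0% of genes were called with edgeR, with 1984, 709, 1070 and 784 under an unadjusted p of 0.05, and DESeq2 called 95, 4, 2 and 10 genes. The largest member value was that of IFNT2 in NP-IF against NP-HF, at -0.49 ± 0.24 (unadjusted p = 0.0510, adjusted p = 0.914), from means of 1.99 and 2.79 CPM. IFNAR2 had a log2 fold change of -0.25 ± 0.12 in NP-SF against NP-HF (unadjusted p = 0.0457, adjusted p = 0.999) and 0.18 ± 0.12 in P-SF against P-HF (adjusted p = 0.630). IFNAR1 stood between -0.18 and 0.14 in these 4 comparisons.

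Downstream of the receptor, STAT2 and IRF9 rose in pregnancy while the kinases that sit on the receptor did not. Of 5 signalling genes, 2 were called higher and 2 lower in P-HF against NP-HF, where 10.2% of all genes were higher and 10.6% lower, and 2 were called higher and 0 lower in P-SF against NP-SF, where 3.18% and 0.887% were. IRF9 rose from 29.8 ± 4.59 to 276 ± 58.8 CPM in HF (log2 fold change 3.21 ± 0.23) and from 33.4 ± 8.59 to 227 ± 59.4 CPM in SF (2.77 ± 0.22). STAT2 rose by 1.88 ± 0.18 in HF and 1.53 ± 0.18 in SF, both genes with adjusted p under 0.05 by edgeR's quasi-likelihood test. TYK2 was called lower in HF (-0.24 ± 0.06, adjusted p = 0.00501) and stood at -0.18 ± 0.06 in SF (adjusted p = 0.0936). JAK1 was called lower in HF (-0.22 ± 0.06, adjusted p = 0.0139), which was lost with the 2 groups fitted alone (adjusted p = 0.0703), and stood at 0.02 ± 0.06 in SF. STAT3 stood at 0.33 ± 0.18 and 0.27 ± 0.18 and was not called. The medians of the 5 genes were 0.33 and 0.27, against -0.01 over all genes in both comparisons.

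Of 10 negative regulators, 4 were called higher and 1 lower in HF pregnancy and 2 higher and 0 lower in SF pregnancy, with medians of 0.30 and 0.07. Among all 19606 tested genes, higher calls made up 10.2% for HF and 3.18% for SF. Lower calls made up 10.6% for HF and 0.887% for SF, and the all-gene median was -0.01 for each class. The 1 lower call for HF does not stand apart from that share. USP18, which displaces JAK1 from IFNAR2 and removes ISG15 from proteins, rose from 5.41 ± 1.66 to 130 ± 37.4 CPM in HF (4.59 ± 0.38) and from 6.47 ± 3.81 to 106 ± 49.8 CPM in SF (4.04 ± 0.37). SOCS3, a feedback inhibitor of cytokine receptors, rose by 1.46 ± 0.29 in HF and by 1.24 ± 0.29 in SF, and without P-SF replicate 5 the SF value was 1.01 and no longer called. SOCS1 rose by 1.28 ± 0.32 in HF and stood at 0.87 ± 0.31 in SF (adjusted p = 0.138). The phosphatase PTPN11 was called lower in HF (-0.51 ± 0.12, adjusted p = 0.00413), and PIAS1 was called higher (0.28 ± 0.09, adjusted p = 0.0376) but not with the 2 groups fitted alone nor in 6 of 10 fits that left out a library. JAK1 and PIAS1 were named to complete their counts. For none of these genes was the difference in pregnancy change between SF and HF called.

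The listed interferon-stimulated genes were called higher in pregnancy in 17 of 17 cases in both classes, with median log2 fold changes of 4.84 in HF and 4.41 in SF. ISG15, a ubiquitin-like modifier, was at 1012 ± 363 CPM in P-HF and 5.46 ± 1.80 CPM in NP-HF (7.54 ± 0.78), and at 776 ± 422 CPM in P-SF and 17.7 ± 25.0 CPM in NP-SF (5.46 ± 0.70). NP-SF replicate 5 held 62.4 CPM of ISG15 and the other NP-SF libraries 4.66 to 7.82 CPM, and without it the SF value was 6.898. In conceptuses 15 of these genes were tested in SF against HF and 0 were called, where 7.79% of all genes were. With so few genes this count does not stand apart from that share. Cell type markers moved beside these changes. The shares of all genes called were 10.2% higher and 10.6% lower in HF pregnancy, and 3.18% higher and 0.887% lower in SF pregnancy. Of 8 uterine cell markers 6 were called lower in HF pregnancy and 0 in SF pregnancy, with summed levels of 1674 to 3594 CPM in P-HF, 6649 to 14600 CPM in NP-HF, 3437 to 5632 CPM in P-SF and 5677 to 8644 CPM in NP-SF. Of 5 immune cell markers 2 and 1 were called higher, with summed levels of 92.4 to 132 CPM in P-HF, 72.8 to 114 CPM in NP-HF, 79.7 to 124 CPM in P-SF and 65.0 to 83.9 CPM in NP-SF. The uterine sums were mostly COL3A1 and COL1A1, with means of 4702 and 1116 CPM over all endometrium. The other uterine markers had means of 6.63 to 78.8 CPM. Averaged as log2(CPM + 1), the 8 uterine markers gave 5.49 to 5.995 in P-HF and 6.10 to 7.25 in NP-HF. In P-SF they gave 5.76 to 6.09 and in NP-SF 5.77 to 6.13. All 13 uterine and immune markers were detected in every group, and their part in the result was not tested.

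**Figure D4:**
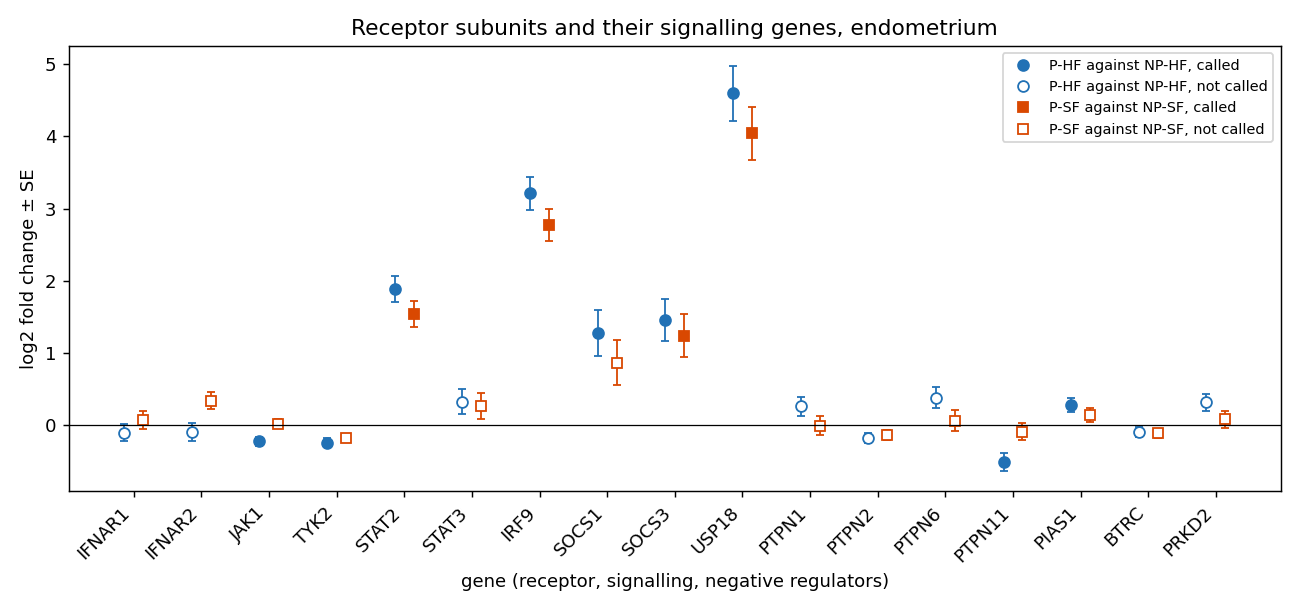
Log2 fold change ± SE with pregnancy in endometrium for the receptor subunits, 5 signalling genes and 10 negative regulators, in HF (blue circles) and SF (orange squares) animals; filled symbols passed the test and open ones did not. STAT2, IRF9, SOCS3 and USP18 are filled in both classes, while IFNAR1 and IFNAR2 are open in both.

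In conceptuses 0 of the 5 signalling genes were called in SF against HF, and 1 of the 10 negative regulators was, where 7.79% of all genes were, so that these counts do not stand apart from the share over all genes. USP18 was higher at 14.6 ± 8.18 CPM in SF and 8.45 ± 5.46 CPM in HF (0.84 ± 0.26, adjusted p = 0.0454), a call that was lost in 25 of 35 fits that left out a library or a recipient. PTPN6, a phosphatase that damps cytokine signalling, was called lower against C-HF-long (-1.54 ± 0.47, adjusted p = 0.0385).

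In endometrium the genes whose levels ran closest to the receptor subunits were ranked over the 25 libraries among 13482 genes averaging 5 CPM or more. YWHAZ, a 14-3-3 adaptor protein, had the highest r with IFNAR1 (0.764), followed by LOC781533 (0.752), GOLGA4 (a Golgi protein, 0.728), CEBPZ (0.727) and LOC100336229 (0.716). OAT, ornithine aminotransferase, had the highest r with IFNAR2 (0.733), followed by NTN4 (a netrin, 0.689), CFB (complement factor B, 0.674), STK38 (a kinase, 0.663) and PDGFC (a growth factor, 0.659). No gene was in both lists of 5.

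Conceptus interferon tau was set beside the endometrium of the same recipient in 8 animals, 4 SF and 4 HF. The question was whether a higher interferon tau CPM went with a stronger response. CPM is a share of the reads of a library and does not give the amount of interferon tau made by a whole conceptus. The endometrial score averaged log2(CPM + 1) over 17 interferon-stimulated genes. Recipients 985 and 811 had the highest mean conceptus IFNT2, 13903 and 11404 CPM, with scores of 9.84 and 8.52, the highest and the lowest of the 8. Recipient 748, with 1779 CPM, had a score of 8.57. Pearson's r was 0.523 (exact permutation p = 0.185, adjusted over 3 relations 0.554) and Spearman's rho was 0.405 (exact permutation p = 0.327, adjusted 0.490). Without the 2 recipients farthest from the median of interferon tau r was 0.0158 (exact permutation p = 0.974), and without recipient 811 it was 0.841 (exact permutation p = 0.0101). The relation was therefore not shown, and a class of 4 recipients is too few to test within.

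The receptor subunits of the endometrium did not follow conceptus interferon tau in these recipients either. For IFNAR1 r was -0.201 (exact permutation p = 0.644, rho -0.143 with p = 0.752), and for IFNAR2 r was -0.244 (exact permutation p = 0.555, rho -0.548 with p = 0.171), with adjusted p of 0.644 for both r. Without the 2 farthest recipients r was 0.815 for IFNAR1 (exact permutation p = 0.0333) and -0.136 for IFNAR2 (exact permutation p = 0.803). Endometrial IFNAR1 was lowest, at 57.6 CPM, in recipient 985 and highest, at 92.6 CPM, in recipient 811.

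**Figure D5:**
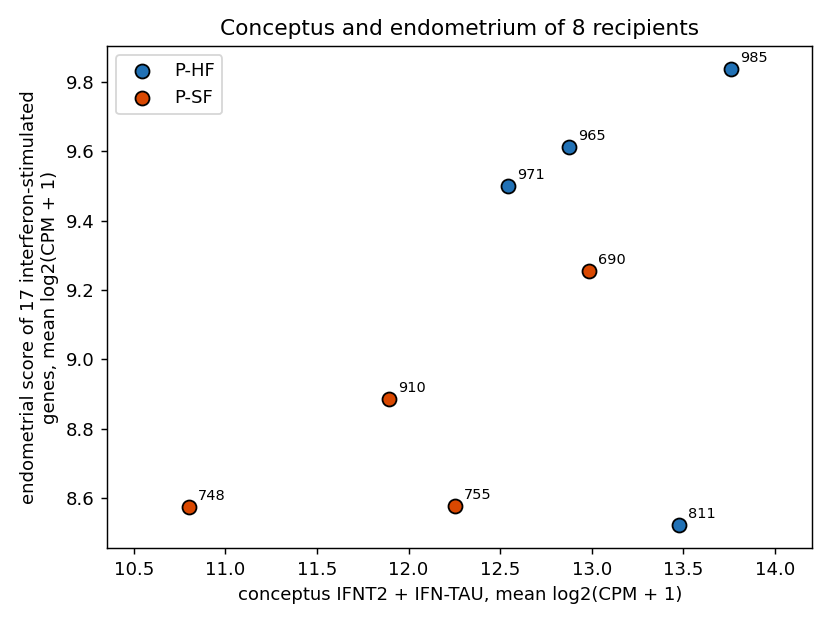
Endometrial score of 17 interferon-stimulated genes, as mean log2(CPM + 1), against mean log2(CPM + 1) of conceptus IFNT2 and IFN-TAU summed, for 8 recipients numbered by animal; colours mark the class. Recipient 985 lies highest on both axes, at 13.8 and 9.84, while recipient 811 pairs 13.48 with the lowest score, 8.52.

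Conceptuses of one uterus were alike in IFNAR1 as well. The 16 conceptuses of 8 recipients gave r = 0.894 between mates (exact permutation p = 0.00151, adjusted over 4 genes 0.00605) and rho = 0.905 (exact permutation p = 0.00456, adjusted 0.0183), and 0.832 without the 2 farthest recipients (exact permutation p = 0.0569, n = 6). Of the 13100 genes, 4.25% had an r at least as high. Both conceptuses of recipient 825, at 29.6 and 34.97 CPM, and of 894, at 29.4 and 27.4 CPM, were above all those of 690, 753, 755, 778, 971 and 985. Those of 753 were at 12.1 and 15.4 CPM and those of 755 at 9.85 and 17.7 CPM. For IFN-TAU r was -0.173 (exact permutation p = 0.675, adjusted 0.675). For IFNAR2 r was 0.978 (exact permutation p = 0.0179, adjusted 0.0238), which rested on recipients 778 and 825: without them r was -0.438 (exact permutation p = 0.667), and rho over all 8 was 0.559 (exact permutation p = 0.173).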

How the data were processed

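RNA was sequenced from 25 endometrial and 27 conceptus samples. The kit kept strand, per the labels' protocols. HISAT2, StringTie and edgeR are named with build UMD 3.1, per the submitters' processing notes, without settings or the strandedness of counting. The authors deposited raw gene counts, and 1020 lines without a gene name were left out. Columns were given to samples by title. Descriptions of 22 conceptus samples name another animal or length, and 3 lengths carry no unit and were taken as cm.

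Counts were filtered with filterByExpr (minimum count 10, minimum total 15), scaled by TMM and tested with edgeR 4.0.16 (R 4.3.3) by quasi-likelihood, Benjamini-Hochberg over all genes. DESeq2 1.42.0 and limma 3.58.1 (voom) were alternatives. The endometrium was fitted with 5 groups together, the conceptuses with number set as covariate. The scripts were tested on simulated data. Values after ± are SE of log2 fold changes unless SD is written. CPM used the TMM scaling within each tissue, and log2 values a pseudocount of 1.

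The members, gene lists and tests were chosen with earlier results of these data known. Named genes were the members, up to 4 called genes of each list per comparison with the smallest p, the 10 or 5 genes most like a member, and ISG15, PGR, KRT8 and KRT18. The conceptuses of 8 recipients are paired by animal number in the titles. The gene table at hand is of ARS-UCD2.0, used for names and neighbourhood only. No sequences are printed. Beside the 5 signalling genes, a further gene first listed with them is not reported here.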

Additional observations from a re-analysis of the deposited data

Results flagged for a closer look

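Each group of 4 to 10 libraries was searched for a library far from the others, its gap to the nearest one set against the range of the group. Of 32 groups checked over the 4 genes 7 held such a library. Chance alone flags about 1 in 20 groups of continuous values. That rate does not hold where most libraries held 0 or a few reads, as for IFNAR2 in conceptuses and IFN-TAU in endometrium. The count of 7 is therefore not to be read against it. In conceptuses all were in IFNAR2: C-HF-short replicate 2 at 0.583 CPM with the next at 0.0583, C-HF-long replicate 3 at 0.465 CPM with the next at 0.214, and C-SF replicate 9 at 0.753 CPM with the next at 0.323. C-HF-short replicate 2 and C-HF-long replicate 3 are the conceptuses of one uterus, recipient 825. In endometrium IFNT2 in NP-IF replicate 2 was at 2.93 CPM with the next at 1.89. IFN-TAU in NP-HF replicate 3 (0.0413 CPM), NP-IF replicate 2 (0.0514 CPM) and P-HF replicate 4 (0.0435 CPM) each stand for 1 read in a group otherwise at 0.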

How the results depend on the processing

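Of 650 values from other scalings, tools, filters and subsets over 97 results, 596 kept direction and side of the threshold, 17 changed sign, 33 lost a call and 4 gained one. Of 1707 values with a library or a recipient left out, 1598 kept both. Where no other cause is named, the cause was not tested. No value of a member that changed sign was called before or after.

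With limma-voom the sign changed for IFNAR1 in P-SF against P-HF (0.019) and in short against long (-0.0028), for IFN-TAU in short against long (-0.20) and for the IFNT2 difference of slopes (-0.19). Without the number set covariate it changed for IFNAR1 in short against long (-0.12) and on length (0.083) and for IFN-TAU on length (-0.092). Within the first number set IFNT2 in short against long was 0.14. Within the second, IFN-TAU on length was -0.41, IFNAR1 on length 0.18 and IFNW1 in SF against HF 0.10. With conceptuses of one recipient and group summed IFNAR1 in short against long was -0.026. With recipient as a replicate block, that is, pairing conceptuses of one uterus, IFNT2 and IFNAR1 in short against long were 0.14 and -0.031. IFNT2 on length was -0.12 with the block, which changed no call. The block fits had no number set covariate. On length in cm the IFNT2 difference of slopes was -0.032. A pseudocount of 0.1 gave 0.081 for IFNAR2 between mates. Spearman's rho for mates was 0.667 for IFNT2 and 0.559 for IFNAR2, neither past the threshold. Genes called in SF against HF, 1222 here, numbered 1925 with DESeq2, 429 with conceptuses of one recipient and group summed and 0 within the second number set. Against C-HF-long, 1454 became 2217 with DESeq2, 934 with limma-voom and 686 with summed conceptuses. Against C-HF-short, 1 became 125 with DESeq2, and in P-SF against NP-SF 798 became 1210.

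Leaving out 1 library or recipient gave log2 ranges in SF against HF of -0.75 to -0.20 for IFNT2 and -0.43 to -0.20 for IFNAR1. In short against long the ranges were -0.30 to 0.18 for IFNT2, -0.18 to 0.32 for IFN-TAU and -0.11 to 0.15 for IFNAR1. On length IFNAR1 ranged from -0.12 to 0.019, and the difference of slopes from -0.32 to 0.63 for IFNT2 and -0.082 to 0.38 for IFN-TAU. In endometrium the ranges were -0.13 to 0.046 for IFNAR1 and -0.15 to 0.032 for IFNAR2 in NP-IF against NP-HF, -0.087 to 0.081 for IFNAR1 in P-SF against P-HF, and -0.086 to 0.22 for IFNT2 in the difference of pregnancy change. Between mates r ranged from 0.586 to 0.958 for IFNT2, -0.431 to 0.400 for IFN-TAU and 0.933 to 0.990 for IFNAR2. Across recipients it ranged from 0.328 to 0.841 for the interferon-stimulated score, -0.686 to 0.337 for IFNAR1 and -0.409 to 0.0056 for IFNAR2.

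Depth limited IFN-TAU, at 142 reads or fewer in a library, and IFNAR2 in conceptuses, at 31 or fewer. Without the low-count filter IFNAR2 stood at 0.85 ± 0.91 in SF against HF (adjusted p = 0.629 by edgeR's quasi-likelihood test).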
